A study of Homo sapiens with 8 samples.

Results

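Heat shock proteins of the cytosol were followed through 8 transfections of human cancer cell lines. The members were 10 named genes, HSPA1A, HSPA1B, HSPA8, HSPH1, DNAJB1, DNAJA1, HSP90AA1, HSPB1, BAG3 and HSPE1, and every non-control probe carrying one of these names on the array was taken. This gave 16 of the 58201 probes, and 10 of 43579 gene or transcript names. The label fits 9 of the genes. HSPE1 encodes a cochaperonin of the mitochondrial matrix, the partner of HSPD1, and it was kept because the rule names it.

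Cells answer unfolded protein in the cytosol through the heat shock factor HSF1, which binds heat shock elements in promoters and raises the transcription of chaperone genes. Hsp70 proteins hold unfolded chains, J-domain proteins bring clients to them, nucleotide exchange factors release the clients, and Hsp90 finishes the folding of kinases and receptors. The endoplasmic reticulum has its own chaperones, which answer to a separate pathway, the unfolded protein response.

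On each array the transfected cells were labelled with Cy5 and mock cells of the same line, which were not transfected, with Cy3. A498 and 786-O, both renal cancer lines, received miR-139-5p or miR-139-3p, which come from opposite arms of 1 hairpin (n = 2 arrays a strand, 1 for each line). MDA-MB-231, a breast cancer line, received siRNA 1 or siRNA 2 against GINS1, a subunit of the replicative helicase (n = 2 arrays, 1 for each siRNA). HCT116, a colorectal cancer line, received miR-490-5p or miR-490-3p (n = 1 array each). The strands of a hairpin are called 5p and 3p below. All transfections used the lipid reagent Lipofectamine RNAiMAX, so its effect and that of the RNA it carried cannot be told apart in a ratio against mock. Replicates of a miR-139 strand are different lines and replicates of si-GINS1 are different siRNAs. The p-values rest on a spread pooled over these groups. Those of si-GINS1 thus also hold the spread between the renal lines, and those of miR-139 that between the siRNAs. Dose and time are not in the labels, which also do not say whether the arrays of a line carried the same mock extract.

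The oligonucleotides are shown first because their seeds differ from each other. The mature miRNAs (RefSeq, GRCh38.p14) are written 5′ to 3′ with the seed, bases 2 to 8, in capitals. The miR-139 strands lie on chromosome 11 (chr11:72615102-72615124 and chr11:72615066-72615088, minus strand) and the miR-490 strands on chromosome 7 (chr7:136903205-136903224 and chr7:136903242-136903263, plus strand), 5p first. None of the 16 probes holds the 7-base complement of any of these seeds within its own stretch, against 0.168% to 0.448% of all 58201 probes. That bears on the probe's stretch of the transcript only. The siRNA sequences were not used here.
miR-139-5p: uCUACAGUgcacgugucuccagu
miR-139-3p: uGGAGACGcggcccuguuggagu
miR-490-5p: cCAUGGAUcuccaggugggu
miR-490-3p: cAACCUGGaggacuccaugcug

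Promoters were searched for the core of a heat shock element, GAANNTTC or TTCNNGAA, where N is any base. Each of these reads the same on both strands, and the spellings may overlap each other. In RefSeq promoter windows around the transcript starts (GRCh38.p14), the core was present in 8 of the 13 windows of the 10 genes, some of which have several starts, against 13.5% of all 35116 windows, and at least 2 copies were present in 4 of 13, against 1.71%. No copy was found in the windows of HSPH1, BAG3 and HSPE1. The windows were short (that of HSPH1 was chr13:31162339-31162638, minus strand). Elements further off or in other spellings were not searched. A match is a description of letters and no evidence of binding. The stretches before the start are printed in the direction of the gene, with the cores in capitals, because they show what members share outside the arrays, 1 start for each of 6 genes. DNAJA1 also holds a core, and HSPA8 another stretch with 2 cores further before its start, at chr11:123062342-123062378 (-). These are not printed. The stretch of HSPA1A lies at chr6:31815425-31815456 (+), HSPA1B at chr6:31827621-31827652 (+), HSPA8 at chr11:123062167-123062203 (-), DNAJB1 at chr19:14518425-14518486 (-), HSP90AA1 at chr14:102087093-102087144 (-) and HSPB1 at chr7:76302479-76302510 (+).
HSPA1A: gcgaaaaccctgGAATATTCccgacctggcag
HSPA1B: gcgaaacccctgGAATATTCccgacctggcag
HSPA8: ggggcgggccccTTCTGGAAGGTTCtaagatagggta
DNAJB1: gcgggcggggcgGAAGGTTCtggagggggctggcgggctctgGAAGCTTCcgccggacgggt
HSP90AA1: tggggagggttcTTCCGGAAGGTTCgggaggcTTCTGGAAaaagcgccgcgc
HSPB1: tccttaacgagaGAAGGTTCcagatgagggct

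Between 24983 and 29687 probes an array exceeded background clearly in 1 channel or both. GINS1 had log2 ratios of -1.31 and -1.92 on the siRNA arrays and between -0.11 and 0.55 on the others. Of the markers fixed for each tissue, 4 of 4 kidney markers were above background in mock A498 and 786-O, 3 of 4 breast markers in MDA-MB-231, and 2 of 4 intestinal markers in HCT116, where VIL1 and LGALS4 were not. PAX8, CDX1, ESR1 and TFAP2C were above background in all 4 lines, PAX2 also in HCT116 and GATA3 also in 786-O. The calls of the 3 breast markers were thus the same in 786-O and MDA-MB-231 and do not set these lines apart. ESR1 was dim, at mean log2 Cy3 levels of 5.99 (MDA-MB-231, HCT116), 6.06 (786-O) and 6.09 (A498). TFAP2C lay at 5.98 in MDA-MB-231 and 786-O, and PGR, not above background, at 5.75 in both. PAX8 was higher in A498 (8.11) and 786-O (8.06) than in MDA-MB-231 (6.71) and HCT116 (6.31). The Cy3 signals of the 2 arrays of a line differed with an SD between 0.06 and 0.10 log2 units over probes, and the largest gap for a member probe was 0.34 (HSPB1 in MDA-MB-231). All 16 member probes were well above background on all 8 arrays except that of HSPA1A, which was above it on 4 arrays.

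The members differed between the lines before any transfection. HSPA1A, a stress-inducible Hsp70, had a log2 Cy3 level of 9.88 and 9.87 in mock A498 and of 9.21 and 9.21 in mock MDA-MB-231. In 786-O (5.72 and 5.73) and HCT116 (5.78 and 5.78) it was not well above background. On the quantile scale the signal of A498 was at least 16.04-fold that of 786-O and at least 16.5-fold that of HCT116, where the bound uses the dimmest probe above background in the dim line. For MDA-MB-231 the bounds were at least 10.1-fold and at least 10.4-fold. With the channels centred on their medians the bounds were at least 11.7-fold and at least 11.9-fold for A498, and at least 14.8-fold and at least 15.03-fold for MDA-MB-231. The order of A498 and MDA-MB-231 thus turned with the scaling, and these lines are not ordered here.

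HSPA1B, which encodes a nearly identical Hsp70 protein from the neighbouring gene, did not follow that pattern. Its log2 Cy3 level was 10.44 and 10.41 (MDA-MB-231), 10.13 and 10.23 (HCT116), 9.27 and 9.22 (A498), and 8.97 and 8.85 (786-O), above background in all lines. No pair of arrays overlapped with the next line. The HSPA1A probe (chromosome 6, 31785491 to 31785550, hg19) and the HSPA1B probe (31797870 to 31797929) match at 23 of 58 bases in their best ungapped alignment, so they are different sequences, but cross-hybridization was not tested and the assignment of signal to 1 gene of the pair is uncertain. In HCT116 the HSPA1B signal was thus measured where that of HSPA1A was not.

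**Figure D1:**
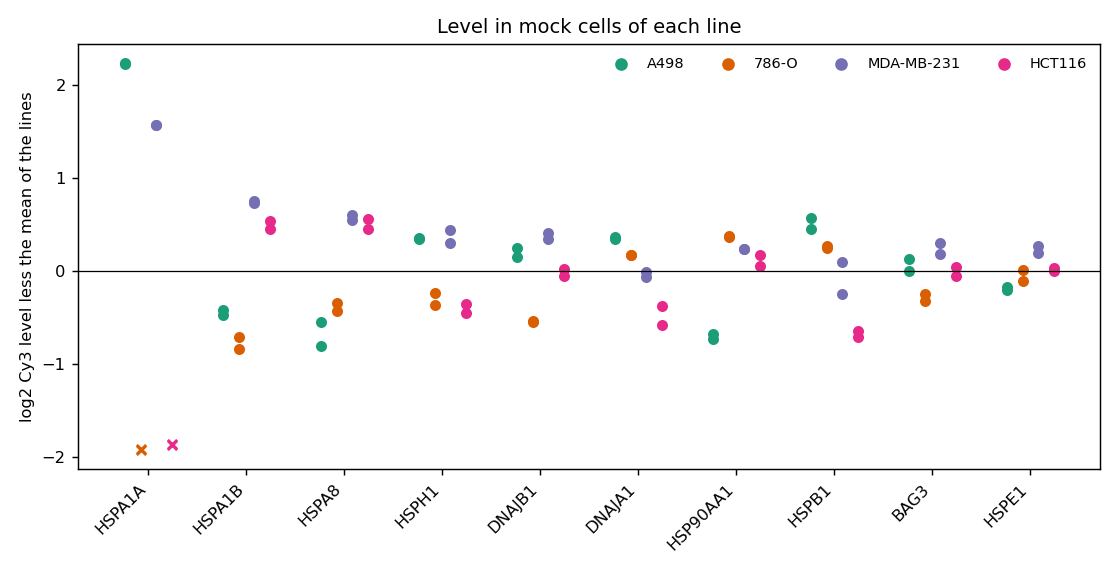
Log2 Cy3 level of each gene in mock cells, less the mean of the 4 lines, by gene on the horizontal axis, with 2 points for the 2 arrays of a line (1 probe a gene, quantile-normalized). Crosses mark values not well above background, and HSPA1A spans 4.15 log2 units between lines where the other genes span between 0.42 and 1.52.

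Among the other members the lines lay closer. HSPA8, the constitutive Hsp70 of the cytosol, was highest in HCT116 (10.68 and 10.58) and MDA-MB-231 (10.68 and 10.72), whose arrays overlapped, and lower in 786-O (9.78 and 9.69) and A498 (9.58 and 9.31). DNAJB1, a J-domain partner of Hsp70 that is itself heat-inducible, was highest in MDA-MB-231 (9.30 and 9.24) and lowest in 786-O (8.34 and 8.35). BAG3, an Hsp70 cochaperone that routes clients to autophagy, was also highest in MDA-MB-231 (7.41 and 7.29) and lowest in 786-O (6.79 and 6.86), with A498 and HCT116 overlapping between them.

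HSP90AA1, the inducible cytosolic Hsp90, was lowest in A498 by each of its 3 probes, by 1.08, 1.26 and 1.53 log2 units below the highest line. Those extremes named for HSPA1B, HSPA8, DNAJB1 and BAG3 and the lowest line of HSP90AA1 were the same under median centring. The sizes were not, and the ranges of the 3 HSP90AA1 probes became 2.03, 2.42 and 2.47. The range between lines went from 1.52 to 2.57 for HSPA1B and from 1.25 to 2.29 for HSPA8. It went from 0.92 to 1.91 for DNAJB1 and from 0.53 to 1.17 for BAG3. For HSPH1, DNAJA1, HSPB1 and HSPE1 the highest or the lowest line changed with the scaling for at least 1 probe, so their order is not read here. On the quantile scale HSPH1 had mean levels of 10.45 (MDA-MB-231), 10.44 (A498), 9.79 (786-O) and 9.68 (HCT116), and DNAJA1 of 10.06 (A498), 9.88 (786-O), 9.67 (MDA-MB-231) and 9.23 (HCT116). The small heat shock protein HSPB1 (Hsp27) had mean levels of 13.62 (A498), 13.37 (786-O), 13.03 (MDA-MB-231) and 12.43 (HCT116), with the widest gap within a line, and HSPE1 lay between 12.66 (A498) and 13.08 (MDA-MB-231). In bulk RNA, fewer cells with a transcript and less of it in each cell cannot be told apart. Mock channels of a line may be repeats of 1 extract, so these levels are descriptions without a test.

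After transfection of HCT116 the question was whether the stress genes of the cytosol moved. No member reached a log2 ratio of 1 in either direction with miR-490-5p, where 1.23% of 27930 measured probes did, or with miR-490-3p, where 0.924% of 28356 did. Under median centring, which leaves out the loess step, 5 of 15 did on the miR-490-3p array and 0 of 15 on the other. A smaller size was set after the values were seen. With miR-490-5p 7 of 15 member probes lay at or above 0.5, against 3.47% of all probes, and with miR-490-3p 6 of 15 did, against 3.64%. Each transfection was measured on 1 array, so no difference has a replicate check and no test was run. The mock channels of HCT116 differed by up to 0.20 log2 units for a member, which is technical spread and holds no spread between cultures.

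**Figure D2:**
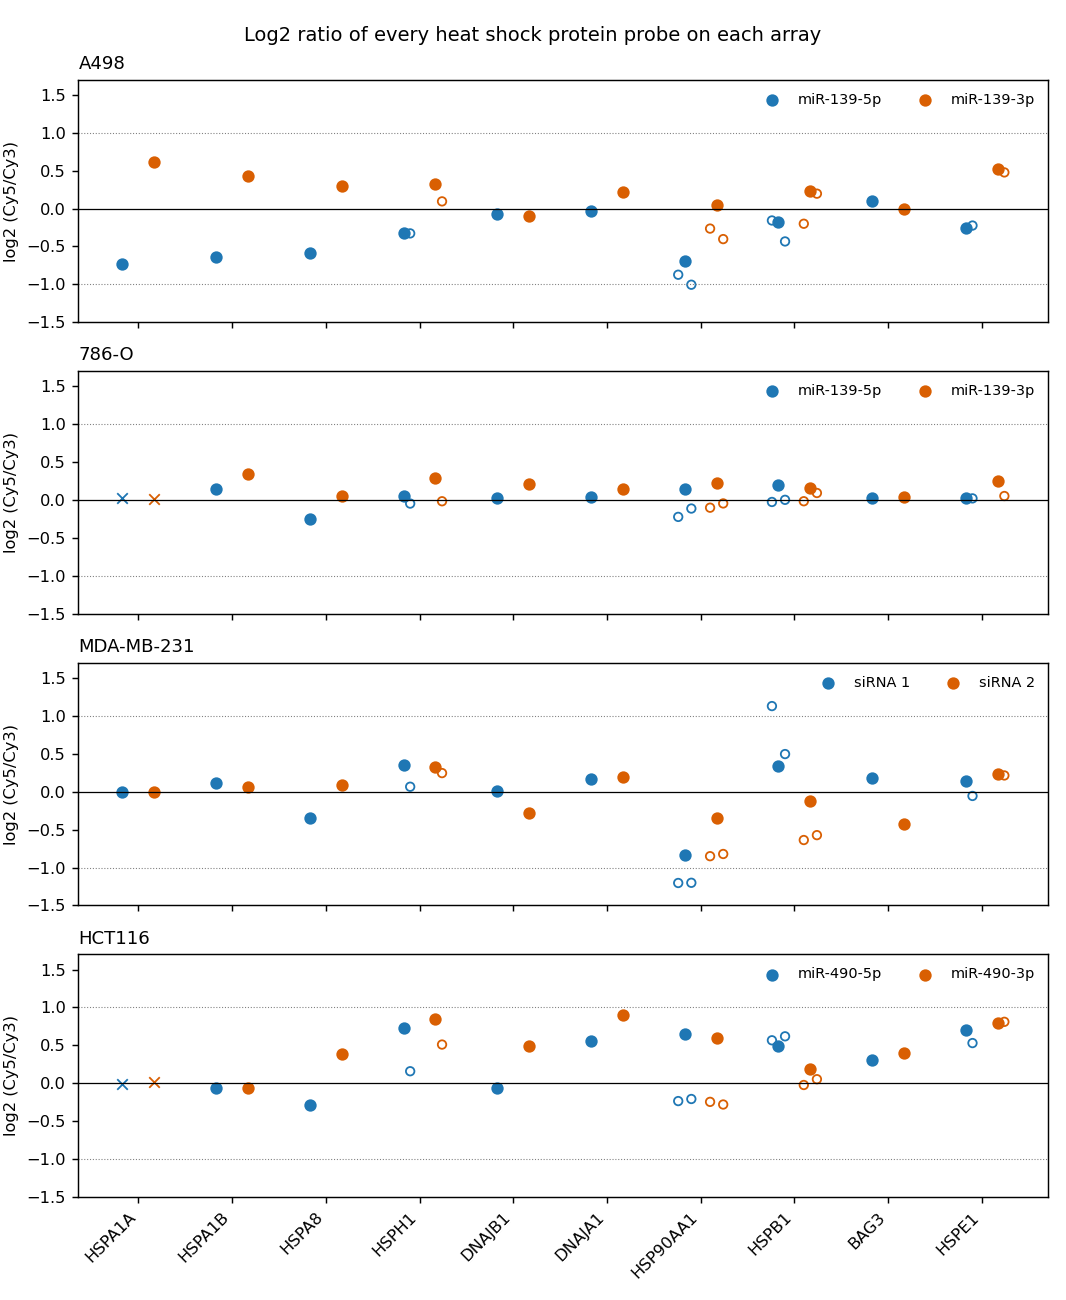
Log2 ratio of transfected over mock for every probe of the 10 genes, 1 panel a line and 1 colour an array. Filled points are the brightest probe of a gene, open points its other probes and crosses values not well above background. Dotted lines mark -1 and 1, which are reached only by probes of HSP90AA1 (A498 and MDA-MB-231) and HSPB1 (MDA-MB-231).

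The transcripts of the Hsp70 proteins were not the highest ones. HSPA1A was not well above background on either HCT116 array. HSPA1B lay at -0.07 with 5p and -0.06 with 3p, both within the gap of the mock channels. HSPA8 went opposite ways, at -0.28 with 5p and 0.39 with 3p.

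Of the partners of Hsp70, HSPH1 (an Hsp110 nucleotide exchange factor) lay at 0.72 with 5p and 0.85 with 3p. Its second probe gave 0.16 and 0.51. DNAJA1, another J-domain cochaperone, lay at 0.55 and 0.90. DNAJB1 lay at -0.06 and 0.49, so only the miR-490-3p array was high. BAG3 lay at 0.30 and 0.39.

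HSPB1 lay at 0.49 with 5p and 0.18 with 3p. Its other probes gave 0.62 and 0.57 with 5p and 0.05 and -0.02 with 3p. All 3 probes were therefore higher with miR-490-5p. HSPE1 lay at 0.70 and 0.79, and its second probe, which overlaps the first in position, at 0.53 and 0.81.

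The probes of HSP90AA1 disagreed in HCT116. The brightest (chromosome 14, 102547395 to 102547454, hg19) lay at 0.65 with 5p and 0.60 with 3p. The second (102549453 to 102549512) lay at -0.21 and -0.28, and the last (102550163 to 102550222) at -0.23 and -0.25. No array had its dyes swapped, and the second and the last probe were below 0 on all 8 arrays. The brightest probe was above 0 on both 786-O arrays and on the miR-139-3p array of A498 as well. This split in sign was therefore not particular to HCT116. When the mean of the groups in the other lines was taken off each probe, the HCT116 values became 0.90, 0.39 and 0.35 with 5p and 0.84, 0.32 and 0.34 with 3p. The 3 probes then lay on 1 side of 0 on 7 of the 8 arrays, the exception being miR-139-3p in A498. That step also takes off whatever the other transfections did to the gene, including the negative values of the siRNA arrays. It removes any constant offset between the probes, so their agreement in sign is in part built in and is no check on a rise. The use of this step on single arrays was chosen after the values were seen.

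**Figure D3:**
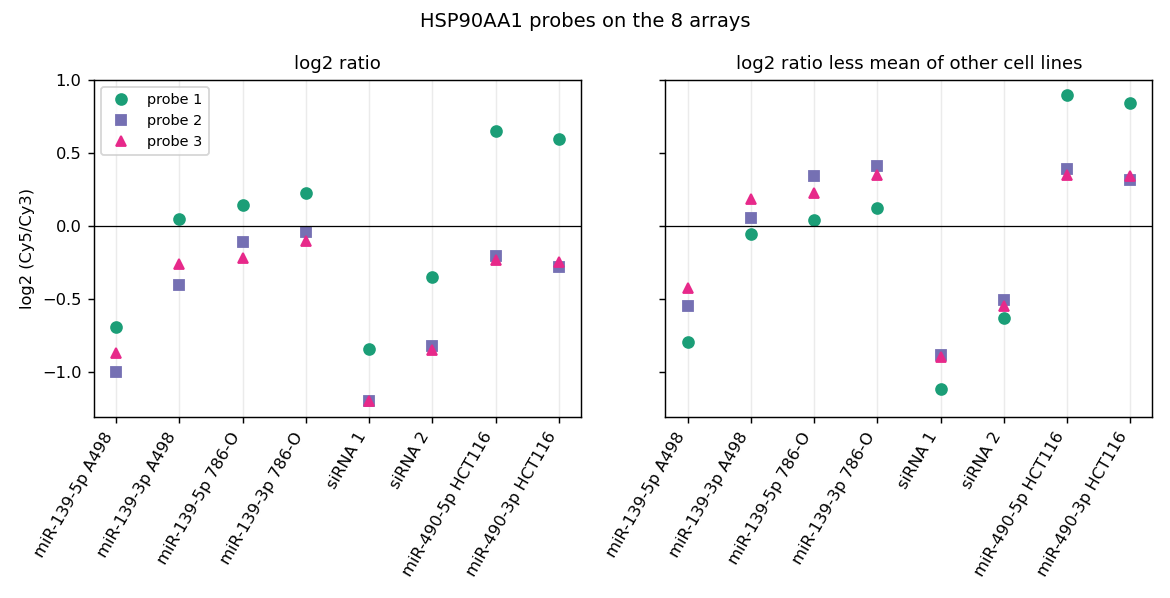
Log2 ratio of the 3 HSP90AA1 probes on the 8 arrays, as measured (left) and less the mean of the groups in the other cell lines (right). On the left the brightest probe is above the others on every array and of opposite sign in HCT116, and on the right the probes lie on the same side of 0 on all arrays but miR-139-3p in A498.

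The strands can be set against each other directly, which cancels a probe's dye bias. For miR-490-3p minus miR-490-5p, 0 of 15 member probes differed by 1 log2 unit, against 1.17% of 26882 probes. The largest differences were 0.67 for HSPA8, 0.55 for DNAJB1 and 0.35 for the second probe of HSPH1, and on the other side -0.30, -0.57 and -0.59 for the probes of HSPB1. In all, 9 of 15 member probes were above 0, against 49.9% of all probes. The median of the members was 0.09.

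Chaperones of other compartments were counted on the same arrays, by 1 probe a gene. The 9 measured members had a median log2 ratio of 0.49 with 5p and 0.49 with 3p, against 0.01 and 0.01 for all genes. Of these 9, 6 were above 0 with 5p and 8 with 3p, against 52.6% and 51.5% of all probes. Over all 15 measured member probes the medians were 0.49 and 0.39. HSP90AA1 counted by its brightest probe (0.65 and 0.60), although its other probes were below 0. The members also held HSPE1 of the mitochondria (0.70 and 0.79). The 17 chaperones of the endoplasmic reticulum had medians of -1.19 and -1.01, all 17 were below 0 on each array, and 12 and 9 of them lay at or below -1. HSPA5 (BiP, the Hsp70 of that compartment) lay at -2.35 and -1.41, PDIA4, a protein disulfide isomerase, at -2.39 and -1.57, and HSP90B1, its Hsp90, at -1.62 and -1.27. Under median centring the members had medians of 0.72 and 0.79 and the endoplasmic reticulum list of -0.96 and -0.78, with 2 of its 17 genes above 0 on the miR-490-3p array. With dye bias removed the members had 0.38 and 0.53 and that list -1.18 and -0.88, with 1 gene above 0 on the miR-490-5p array.

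**Figure D4:**
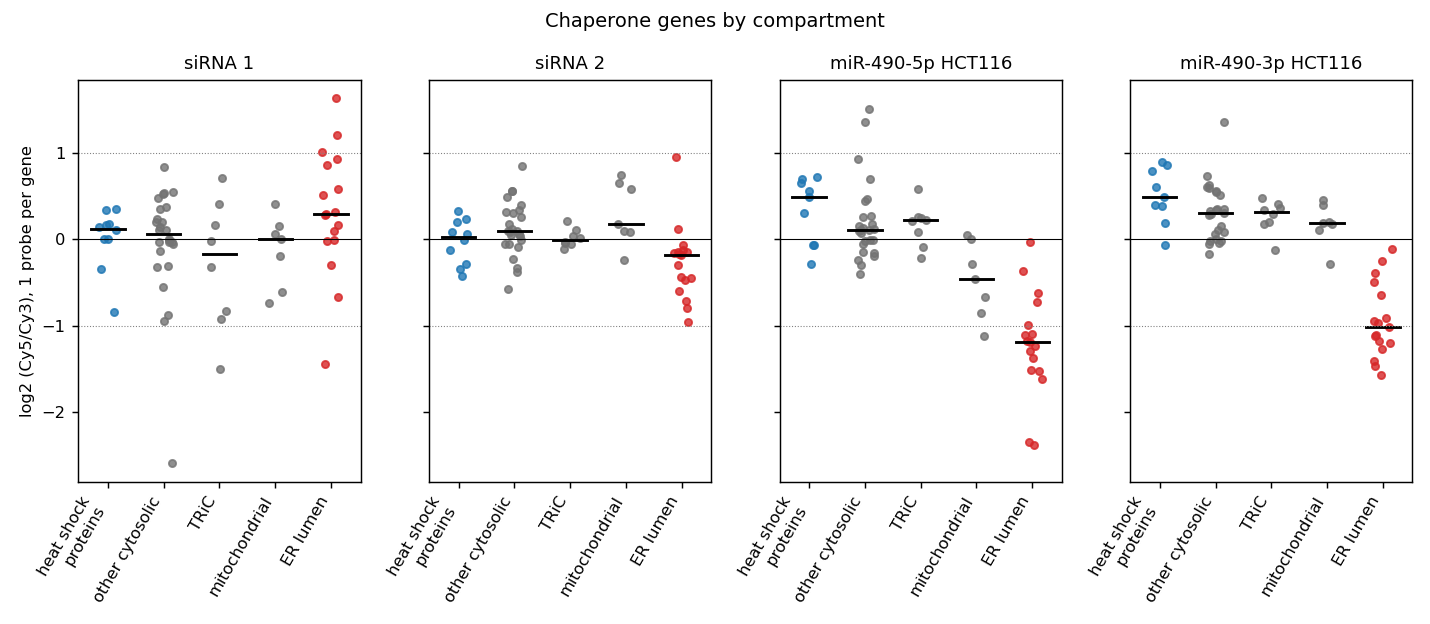
Log2 ratio of chaperone genes on the siRNA and HCT116 arrays, by compartment, with 1 point a gene measured above background and a bar at the median. In HCT116 the heat shock proteins (medians 0.49 and 0.49) stand above and the chaperones of the endoplasmic reticulum (medians -1.19 and -1.01) below 0. The heat shock proteins include HSPE1 of the mitochondria, and HSP90AA1 is shown by its brightest probe, whose other probes were below 0.

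The remaining lists lay between those. Other cytosolic chaperones and cochaperones had medians of 0.11 (26 genes) with miR-490-5p and 0.31 (25 genes) with miR-490-3p. In that list DNAJC7, a J-domain protein that bridges Hsp70 and Hsp90, lay at 1.504 and 1.36, and HSPA14, an Hsp70 of the ribosome-associated complex, at 1.36 and 0.54. The 8 subunits of TRiC, the cytosolic chaperonin, had medians of 0.22 and 0.31, and none reached 1. The 7 mitochondrial chaperones had medians of -0.46 and 0.18, with HSPD1, the partner of HSPE1, at -0.67 and 0.45 and the protease LONP1 at -1.11 and -0.29. HSPD1 was named after its values were seen. The 4 genes of the heat shock factor list (HSF1, HSF2, HSF4 and HSBP1, the last not itself such a factor) had medians of 0.10 and -0.17. HSF1 lay at 0.07 and 0.23, and its other probes at -0.11 and 0.11 and at -0.08 and 0.05. HSF2 lay at 0.14 and -0.29, and HSF4, which was dim (mean log2 intensity 6.06), at -0.21 and -0.05. HSBP1, which binds HSF1, lay at 0.31 and -0.44, but its other probe at 0.13 and 0.02. HSPA6, a strictly inducible Hsp70, lay at -0.01 and -0.02. Its probe was dim, with a mean log2 intensity of 5.96, where the HCT116 mock channels had medians of 5.86 and 5.84. The offset pulls such ratios toward 0, so these values do not show whether HSPA6 moved. These 5 genes were singled out after their values were seen.

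With si-GINS1, limma called 1 of 16 member probes, against 6.97% of 27796 probes tested, so the members' share was near the background. At an unadjusted p under 0.05 there were 5 of 16 member probes, against 25.9% of all probes, which is also near the background. The called probe was the last of HSP90AA1, with log2 ratios of -1.20 with siRNA 1 and -0.85 with siRNA 2, a mean of -1.03 ± 0.25 (SD, n = 2; SE 0.18) and a limma adjusted p of 0.0436. The second probe gave -1.20 and -0.82 (limma adjusted p 0.0778) and the brightest -0.84 and -0.35 (limma adjusted p 0.190). All 3 probes were below 0 on both arrays. In 10 alternatives that probe passed in 5, with limma adjusted p-values from 0.00556 to 0.523. With dye bias removed its mean was -0.73 (limma adjusted p 0.148), and under median centring it was -0.56 (limma adjusted p 0.0463), where the brightest probe turned to 0.07. Without siRNA 1 limma called 4 member probes of 6721 probes called in all, and without siRNA 2 it called 3 of 9471, the last HSP90AA1 probe among them each time, so these counts rose with those of all probes. Of the epithelial markers 1 of 4 was called. CDH1 (E-cadherin) fell on the same arrays, by 0.57 on the log2 scale (SD 0.09, n = 2, limma adjusted p 0.0162), and its part in the result was not tested. CDH1 was dim in mock MDA-MB-231, at a mean log2 Cy3 level of 6.21, against 9.15 in HCT116. In 786-O, where it was not well above background, the level was 5.73.

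The inducible Hsp70 genes stayed near 0 with either siRNA. HSPA1A lay at -0.00 and -0.01 with siRNA 1 and siRNA 2, and HSPA1B at 0.11 and 0.06. HSPA8 lay at -0.35 and 0.09. Both HSPA1A and HSPA8 turned to a positive mean under median centring, at 0.41 and 0.37. On that scaling all genes had a median of 0.18 on the siRNA 1 array and of 0.14 on the miR-139-5p array of A498, while the members had medians of 0.65 (siRNA 1), 0.39 (siRNA 2) and 0.18 (miR-139-5p in A498).

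HSPH1 lay at 0.35 and 0.32 (mean 0.34 ± 0.02, SD, n = 2; limma adjusted p 0.109) and its second probe at 0.07 and 0.25. DNAJA1 lay at 0.17 and 0.20 (mean 0.18 ± 0.02, SD, n = 2; limma adjusted p 0.0851). Both were close between the siRNAs but missed the threshold, in a test whose pooled spread also holds that between the renal lines. With dye bias removed they turned to -0.10 and -0.22, and under median centring they rose, by 0.84 (limma adjusted p 0.0304) and 0.63 (limma adjusted p 0.0395). DNAJB1 lay at 0.00 and -0.29 (mean 0.27 under median centring), and HSPE1 at 0.14 and 0.24 with its second probe at -0.06 and 0.21. HSPE1 turned to a mean of -0.25 with dye bias removed and rose by 0.84 (limma adjusted p 0.0304) under median centring.

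For HSPB1 and BAG3 the siRNAs went opposite ways. HSPB1 lay at 0.33 with siRNA 1 and -0.12 with siRNA 2, its second probe at 0.50 and -0.57, and its dimmest probe (chromosome 7, 75931924 to 75931983, hg19) at 1.13 and -0.64. BAG3 lay at 0.18 and -0.42. By the rule of size 3 of 16 member probes reached 1 in either direction with siRNA 1, against 2.73% of 29685 probes, and 0 of 16 with siRNA 2, against 1.66% of 28633. For siRNA 2 minus siRNA 1, 2 of 16 did, against 4.8% of 27804. These were the second and the dimmest probe of HSPB1, at -1.07 and -1.77. The siRNA arrays have 1 array each, so this difference was not tested.

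Of 25 other cytosolic chaperones tested 4 rose and 0 fell, where 6.97% of all probes were called and 1010 of those 1936 fell: HSPA4L, an Hsp110 relative, by 0.84 ± 0.01 (SD, n = 2; limma adjusted p 0.0151), CDC37, which brings kinases to Hsp90, by 0.52 ± 0.04 (SD, n = 2; limma adjusted p 0.0249), DNAJB2, a J-domain protein, by 0.40 ± 0.12 (SD, n = 2; limma adjusted p 0.0434), and AHSA1, an activator of the Hsp90 ATPase, by 0.27 ± 0.05 (SD, n = 2; limma adjusted p 0.0398). The median of the list was 0.12. All 4 stayed above 0 under the 10 alternatives run, although AHSA1 was at 0.03 with dye bias removed, but the calls were often lost: in 4 of 10 alternatives for HSPA4L, 5 for CDC37, 6 for DNAJB2 and 5 for AHSA1. All 4 were lost with the scanner log ratio, with dye bias removed, with the robust prior and with own arrays alone. Of the 7 mitochondrial chaperones TRAP1, a mitochondrial Hsp90, rose by 0.49 ± 0.13 (SD, n = 2; limma adjusted p 0.0231), a call lost in 3 of 10 alternatives. Limma called none of the 8 TRiC subunits, the 4 genes of the heat shock factor list or the 17 chaperones of the endoplasmic reticulum. At an unadjusted limma p under 0.05 there were 1, 2 and 3 of them, where 25.9% of all probes had such a p.

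The siRNAs also differed in other chaperones. Those of the endoplasmic reticulum had a median of 0.29 with siRNA 1 and -0.18 with siRNA 2, where the members had 0.12 and 0.02. With siRNA 1 that list ranged from -1.45 (HSP90B1) to 1.63 (HSPA5), and with siRNA 2 these lay at -0.43 and -0.48. BAG1, an Hsp70 nucleotide exchange factor, lay at -2.59 and -0.58, with its other probes at -2.34 and -2.45 on the siRNA 1 array, and the TRiC subunit CCT2 lay at -1.504 and 0.11. HSP90B1, HSPA5, BAG1 and CCT2 were singled out here after their values were seen.

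In the renal lines no member was called for either strand of miR-139. For miR-139-5p limma called 0 of 15 member probes, against 0.0129% of 23282, and 2 had an unadjusted p under 0.05, against 2.55%. For miR-139-3p it called 0 of 15, against 0% of 22806, and 3 had an unadjusted p under 0.05, against 4.44%. For miR-139-3p minus miR-139-5p, the strands over both lines, it called 0 of 15, against 0% of 22174, and 3 had an unadjusted p under 0.05, against 0.681%. HSPA1A was left out of these tests since it was not above background in 786-O.

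Within A498, however, the strands lay far apart for the Hsp70 genes. HSPA1A lay at -0.73 with 5p and 0.62 with 3p, HSPA1B at -0.63 and 0.43, and HSPA8 at -0.58 and 0.30. Their differences, miR-139-3p minus miR-139-5p, were 1.35, 1.06 and 0.88 log2 units. The largest gap of a member between the mock channels of A498 was 0.26, for HSPA8. With 1 array a strand in each line this is a difference between arrays without a test. Both strands were measured against mock A498, where HSPA1A was well above background.

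The other members in A498 followed with smaller differences. HSPE1 lay at -0.26 and 0.52, HSPH1 at -0.32 and 0.33, and HSPB1 at -0.18 and 0.24. The second probe of HSPE1 gave -0.22 and 0.48 and that of HSPH1 -0.33 and 0.10. The second probe of HSPB1 gave -0.43 and 0.20, but its dimmest gave -0.16 and -0.20 and so did not follow. The probes of HSP90AA1 lay at -0.69, -1.004 and -0.87 with 5p and at 0.05, -0.40 and -0.26 with 3p. DNAJB1 (-0.07 and -0.10) and BAG3 (0.10 and 0.00) did not follow, with differences of -0.03 and -0.10, and DNAJA1 lay at -0.03 and 0.21. In all, 13 of 16 member probes were higher with miR-139-3p, against 49.0% of 25014 probes, with a median difference of 0.62. By the rule of size 2 of 16 differed by 1 log2 unit or more, against 0.216%, and under median centring 1 of 16 did. Against mock 1 of 16 reached it with miR-139-5p, against 0.0705% of 26968, and 0 of 16 with miR-139-3p, against 0.172% of 25637. That 1 was the second probe of HSP90AA1.

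In 786-O the same differences were small. HSPA1B lay at 0.14 with 5p and 0.35 with 3p, HSPA8 at -0.24 and 0.06, HSPH1 at 0.05 and 0.29, and HSPE1 at 0.03 and 0.25. DNAJB1 lay at 0.03 and 0.21, DNAJA1 at 0.04 and 0.15, HSPB1 at 0.20 and 0.16, and BAG3 at 0.03 and 0.04. The probes of HSP90AA1 lay at 0.14, -0.11 and -0.22 with 5p and at 0.23, -0.04 and -0.10 with 3p. The other probes of HSPH1, HSPB1 and HSPE1 lay between -0.05 and 0.09 on both arrays. Of 15 probes, 14 were higher with miR-139-3p, against 51.5% of 23988 probes, but the median difference was 0.09 and the largest 0.30. None of 15 differed by 1, against 0%. Against mock none of 15 did with miR-139-5p, against 0.032% of 24980, or with miR-139-3p, against 0.0358% of 25134. Whether the strand difference itself differs between the lines was not tested.

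Over the lines, the contrast of the strands gave 0.59 ± 0.20 (SE, 4 arrays) for HSPA8, 0.63 ± 0.26 for HSPA1B, 0.44 ± 0.14 for HSPH1 and 0.50 ± 0.15 for HSPE1, each with a limma adjusted p of 0.9999. The arrays pair by line, and with the line as a block 0 member probes were called as well.

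The genes whose pattern was most like the mean of HSPA1A, HSPA1B, DNAJB1, HSPH1 and BAG3 over the 8 arrays were sought among 2832 genes measured on every array with a range of at least 1 log2 unit. EIF4G2, a translation initiation factor, had a Pearson correlation of 0.92, SCARNA17, a small Cajal body RNA, 0.88, an unnamed Ensembl transcript 0.87, RAB12, a small GTPase, 0.86, and CPSF3, the endonuclease of pre-mRNA 3′ processing, 0.83. They are the highest of 2832 and are given as a description. The mean holds values of HSPA1A from 4 arrays where it was not above background. Without HSPA1A, 3 of the same 5 genes (SCARNA17, RAB12 and EIF4G2) were among the 5 highest. The members' mean was lowest, at -0.33, on the array of A498 with miR-139-5p, and so was EIF4G2, at -1.12. The 8 arrays share lines, a slide and perhaps mock extracts.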

How the data were processed

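RNA of 8 transfected cell cultures was measured against mock RNA on 8 two-colour Agilent arrays of 1 slide. The authors deposited, per the file headers, intensity columns of each spot and its local background from Feature Extraction 11.5.1.1, linear and before any normalization. Per spot they deposited a log10 value as well, the Cy5 signal over the Cy3 signal after the scanner software's own corrections. The deposited series table held the same log10 ratios (largest difference 0), and both served as a single alternative. Probe positions (hg19) and names are those of the array annotation, and names of list genes were updated through RefSeq accessions (31104 probes matched).

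The normexp correction with offset 50, which pulls dim ratios toward 0, was applied and log2 ratios were normalized by loess within each array, in limma 3.58.1 under R 4.3.3. Of 62976 spots an array, 2075 controls and between 169 and 272 flagged spots were left out, as were probes with no value on an array, and 0 were saturated. Spots of a probe were averaged, and the brightest probe stood for a gene. Groups of 2 arrays were tested against 0 with lmFit and eBayes over all 8 arrays (5 coefficients, 3 residual degrees of freedom) on probes well above background in 1 channel or both on each array tested, with Benjamini-Hochberg adjustment and a threshold of 0.05. The mock enters that test only as the denominator of each ratio, and its spread between cultures was not measured apart. HCT116 arrays and differences between arrays had no test, and a size of 1 log2 unit was used. Mock levels are quantile-normalized Cy3. The miR-139 arrays pair by cell line in the labels, and deviations of the arrays of a line correlated at 0.08 over 22178 probes.

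The members and lists were chosen with earlier results of these data known. All members are described by every probe; of each list at most 4 genes were named a comparison, those called (or at or beyond 1 on an unreplicated array) with the largest ratio. Alternatives were the scanner log ratio, median centring, an offset of 10, no filter, dye bias removed (less the mean of groups in other lines), line as a random block, another prior, own arrays alone and leaving out arrays. Files were read with data.table (version 1.17.8). Sequences and figures were handled with Python 3.11.15, numpy 2.4.6, pandas 2.3.3 and matplotlib 3.10.9.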

Additional observations from a re-analysis of the deposited data

Results flagged for a closer look

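DNAJB1 lay below 0 on both miR-139 arrays of A498 (-0.07 and -0.10) and above 0 on both of 786-O (0.03 and 0.21), so that the lines' means were 0.208 log2 units apart. This opposite placement singled it out among the members. The difference itself was not tested, and the mock channels of A498 differed by up to 0.26 for a member.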

How the results depend on the processing

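With 1 or 2 arrays a group the number of arrays limits the precision, no dye swap separates dye bias from effect, and dim probes are pulled toward 0. Of the single-gene results with a test, by the brightest probe, 260 kept direction and side of the threshold, 40 turned direction and 8 newly passed over the alternatives, and of those without a test 138 moved by less than the mock spread and 104 by more. Of the counts that answer a comparison, 67 stayed within 1.5 times, 17 fell further and 16 rose further. The causes were not tested, except that own arrays alone leave fewer residual degrees of freedom. For si-GINS1, member probes called (1 as reported) were 0 with the scanner log ratio, without the filter, with dye bias removed, with a robust prior that follows intensity and with own arrays alone, and 6 under median centring and 6 with the cell line as a random block. All probes called (1936 as reported) were 75 with the scanner log ratio, 2974 under median centring, 665 with dye bias removed, 10736 with the random block, and 0 with that prior and 0 with own arrays. Leaving out 1 siRNA gave 3 to 4 member probes and 6721 to 9471 probes in all, with the lone array assumed to vary like the other groups. Without siRNA 1 the last HSP90AA1 probe, 2 HSPB1 probes and BAG3 passed, all lower, and without siRNA 2 a pair of HSP90AA1 probes (lower) and an HSPB1 probe (higher) did. For miR-139-5p, all probes called (3 as reported) were 7 with the scanner log ratio, 6 with an offset of 10, 6 with own arrays, 0 under each other alternative, and 0 to 0 without either line. For miR-139-3p (0 as reported) they were 13 with the scanner log ratio, 6 with an offset of 10 and 7 with own arrays. No member probe was called for either strand of miR-139 under any alternative run. Median centring gave 5 member probes at 1 log2 unit and 10 at 0.5 on the miR-490-3p array (0 and 6 as reported), and 1 strand difference in A498 (2 as reported).

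Directions turned as follows. For si-GINS1, median centring gave HSPA1A 0.41, HSPA8 0.37, DNAJB1 0.27, HSP90AA1 0.073 and BAG3 0.15, the median over probes gave HSPB1 -0.038, and dye bias removed gave HSPH1 -0.10, DNAJA1 -0.22, HSPB1 -0.11 and HSPE1 -0.25. Leaving out 1 siRNA gave ranges of -0.35 to 0.087 for HSPA8, -0.29 to 0.0033 for DNAJB1, -0.12 to 0.33 for HSPB1 and -0.42 to 0.18 for BAG3. For miR-139-5p, the scanner log ratio gave HSPB1 -0.020, median centring HSPH1 0.072, DNAJB1 0.14, HSP90AA1 0.040 and HSPE1 0.19, an offset of 10 DNAJA1 -0.0028, the median over probes HSPB1 -0.089, and dye bias removed DNAJA1 -0.54, HSPB1 -0.25 and BAG3 -0.13. Leaving out 1 line gave -0.63 to 0.14 for HSPA1B, -0.32 to 0.052 for HSPH1, -0.072 to 0.031 for DNAJB1, -0.030 to 0.035 for DNAJA1, -0.69 to 0.14 for HSP90AA1, -0.18 to 0.20 for HSPB1 and -0.26 to 0.028 for HSPE1. For miR-139-3p, the median over probes gave HSP90AA1 -0.15, and dye bias removed gave HSPH1 -0.33, DNAJB1 -0.041, DNAJA1 -0.36, HSP90AA1 -0.082, HSPB1 -0.059, BAG3 -0.17 and HSPE1 -0.17. Leaving out 1 line gave -0.10 to 0.21 for DNAJB1. With the cell line as a replicate block, which pairs the miR-139 arrays, the contrast of the strands called 0 member probes and 0 probes in all, as without it, and no call changed. The 0.5 size, the differences within A498, 786-O and MDA-MB-231, the HSP90AA1 values less other lines, the list medians by setting the HSPA1A bound and its scaling, and the likeness without HSPA1A were chosen after seeing the data. Of the mock levels, 39 moved beyond the mock spread with the scaling and 1 did not.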
